A study of Mus musculus with 6 samples.

Results

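The genes described here are 9 genes of nitric oxide and cyclic GMP (cGMP) signaling, taken by symbol from the 54232 genes counted in heart ventricle RNA. They are the nitric oxide synthases *Nos1*, *Nos2* and *Nos3*, the methylarginine hydrolases *Ddah1* and *Ddah2*, the subunits of soluble guanylyl cyclase *Gucy1a1* and *Gucy1b1*, the cGMP-dependent kinase *Prkg1* and the cGMP phosphodiesterase *Pde5a*. They were listed by function, with earlier results of these data known, and 9 of 9 were found in the count tables. All mice were wild-type C57BL/6J on western diet (WD) for 15 weeks. In the WD + Tributyrin group 3 mice were then needle-fed Tributyrin, a triglyceride of butyrate, at 5 g/kg body weight for 3 weeks, and in the WD + Vehicle group 3 mice received the vehicle, which the labels call PBS. The study used mice of both sexes, and neither the sex nor the age of these 6 mice is given in the sources used here. The tissue was whole ventricle, so the RNA comes from all its cell types together.

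Nitric oxide is made from arginine by the synthases. *Nos1* encodes the neuronal enzyme, which cardiomyocytes also use, *Nos2* the inducible enzyme known from activated macrophages and inflamed tissue, and *Nos3* the endothelial enzyme. Methylated arginines block the synthases and are broken down by the enzymes of *Ddah1* and *Ddah2*. Nitric oxide binds the heme of soluble guanylyl cyclase, a dimer of an alpha and a beta subunit, which then makes cGMP. cGMP activates the kinase encoded by *Prkg1*, which relaxes smooth muscle and acts on cardiomyocytes, and the enzyme encoded by *Pde5a* removes cGMP. The study used *nos2* mRNA as a readout of nitrosative stress in its model. The comparisons here ask how the synthases stand to each other in these hearts and whether any of the 9 genes differed with Tributyrin.

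The libraries held 20369746 to 32734485 counts on genes. Mitochondrial transcripts took 23.6% to 26.5% of the counts with vehicle and 25.9% to 28.8% with Tributyrin. Markers of cardiomyocytes were high in every library, with 46280 to 49910 CPM (counts scaled to a common library size) summed over 6 genes. Of the 6, 0 were at 0. A list of 5 atrial markers summed to 182 and 172 CPM in vehicle mice 1 and 2. The sum was 53.8 CPM in vehicle mouse 3 and 31.04 to 64.4 CPM with Tributyrin. Within the vehicle group *Nppa*, a marker of this list, went against the sum. It had 533, 625 and 842 counts in vehicle mice 1 to 3. Of the atrial markers 5 of 5 had estimates below 0 with Tributyrin, 4 of them at an unadjusted p under 0.05 in edgeR. Of all genes tested 50.4% were below 0 and 4.25% had such a p. The main comparison is therefore also given without vehicle mice 1 and 2. The 9 genes ranged from 1 count (*Nos1* in vehicle mouse 3) to 631 counts (*Gucy1a1* in vehicle mouse 2).

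The levels of the 3 synthases were far apart. To compare genes, CPM values, scaled by the TMM method of edgeR, were divided by the exonic length of the gene in kilobases, which gives RPKM. *Nos3* was the highest with 3.76 ± 0.508 RPKM (SD, n = 6), *Nos2* followed with 1.51 ± 0.292 RPKM (SD, n = 6) and *Nos1* was at 0.0185 ± 0.0133 RPKM (SD, n = 6). This order held in 6 of 6 mice for each of the 3 pairs. On the log2 scale the RPKM ratio of *Nos3* to *Nos2* was 1.33 ± 0.373 (SD, n = 6), that of *Nos3* to *Nos1* 7.97 ± 1.14 and that of *Nos2* to *Nos1* 6.64 ± 1.00. A two-sided exact permutation test that pairs both genes within a mouse gave p = 0.0312 for each pair, the smallest p that 6 mice allow, and 0.0312 after Benjamini-Hochberg adjustment over the 3 pairs.

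**Figure D1:**
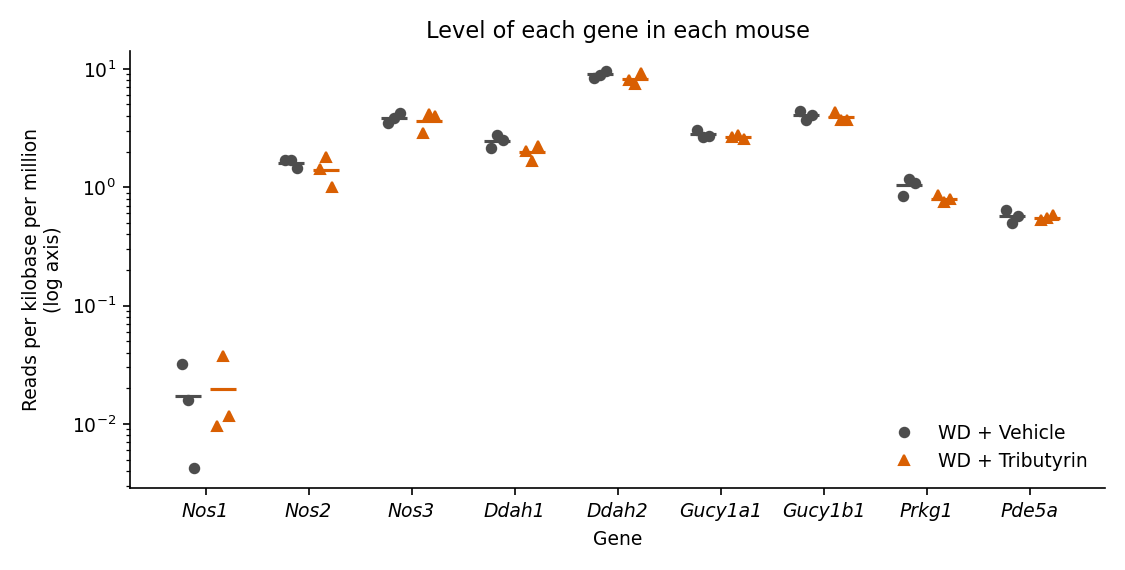
Level of the 9 genes in RPKM on a log axis, with 1 point for each mouse, grey circles for WD + Vehicle, orange triangles for WD + Tributyrin and a bar at each group mean. *Nos1* lies between 0.00424 and 0.0375, below the other 8 genes in every mouse, and the points of both groups overlap for each gene.

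*Nos1* (ENSMUSG00000029361) is a protein-coding gene on the plus strand of chromosome 5, from 117781032 to 117958840 in GRCm38, with 11151 exonic bases. Its counts were 9, 6 and 1 in vehicle mice 1 to 3 and 3, 12 and 3 in Tributyrin mice 1 to 3. With 34 counts over 6 libraries it was measured at the edge of detection, and the single count of vehicle mouse 3 has an exact 95% Poisson interval of 0.0253 to 5.57. It did not pass the filter on low counts and is the 1 gene of the 9 that was not in the test across genes. Normalized counts, which are counts over DESeq2 size factors, were 5.08 ± 4.07 (SD, n = 3) in the vehicle mice and 5.74 ± 4.54 (SD, n = 3) in the Tributyrin mice. This difference was within their spread (exact permutation test, two-sided, p = 0.8). One antisense gene, *Gm26995*, shares 268 exonic bases with *Nos1* and had 0 counts.

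*Nos2* (ENSMUSG00000020826), on the plus strand of chromosome 11 from 78920787 to 78960254 with 4412 exonic bases, was counted in every heart, with 102 to 254 reads a library. The normalized counts were 196, 197 and 168 in the vehicle mice and 164, 209 and 117 in the Tributyrin mice. The vehicle mice lay close together, while the Tributyrin mice held both the highest and the lowest of the 6 values. The coefficient of variation was 8.95% with vehicle and 28.2% with Tributyrin, where counting error alone gives at most 9.9%. The log2 fold change of Tributyrin over vehicle was -0.19 (standard error 0.19). It was -0.41 without Tributyrin mouse 2, with an unadjusted p of 0.0446 from edgeR, and -0.0029 without Tributyrin mouse 3. No window of 50 bases, the read length of the study, in the annotated *Nos2* transcripts was found in a transcript of another gene (0 of 4358 windows), and no annotated gene overlaps it.

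The summed level of 5 macrophage markers was 72.1 to 86.6 CPM with vehicle and 64.5 to 86.9 CPM with Tributyrin, and the marker values in order of mouse were 72.1, 86.6 and 75.5 CPM and then 66.8, 86.9 and 64.5 CPM. Tributyrin mouse 2 was highest and Tributyrin mouse 3 lowest both in this sum and in *Nos2*. In the sum, vehicle mouse 2 was close behind (86.6 against 86.9 CPM). Of the single markers only *Mrc1* had both features. *Adgre1* was highest in vehicle mouse 3, and *Csf1r* and *Itgam* were highest in vehicle mouse 2. Tributyrin mouse 2 was also highest in the endothelial, smooth muscle, pericyte and fibroblast marker sums. Estimates were below 0 with Tributyrin for 5 of the 5 macrophage markers, as for the 8 genes tested here. The median of these markers was -0.09 on the log2 scale, with 0 at an unadjusted p under 0.05. None of the 5 was at 0, and their part in the *Nos2* values was not tested. Here as elsewhere in bulk tissue, fewer cells of a type and less RNA per cell cannot be told apart.

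*Nos3* (ENSMUSG00000028978) lies on the plus strand of chromosome 5 from 24364810 to 24384474 and has 4132 exonic bases. Its normalized counts were 380.4, 421 and 458 in the vehicle mice and 310.4, 446 and 435 in the Tributyrin mice. Tributyrin mouse 1 was the lowest of all, and the other Tributyrin mice lay within the range of the vehicle mice. The log2 fold change was -0.08 (standard error 0.142), and it was 0.08 without Tributyrin mouse 1. The *Nos3* value carries a limit of its own. On the opposite strand the antisense gene *Gm15587* shares 1040 exonic bases with it and had 0 to 4 counts, and *Atg9b* shares 294 bases and had 16 to 55 counts. Of the 50-base windows in *Nos3* transcripts, 827 of 4130 (20.02%) occur in transcripts of other genes on either strand. The libraries were stranded, but the strand setting of the counting is not given in the sources used here, so reads of *Nos3* and its antisense partners may not have been told apart.

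*Nos3* was also set against 8 endothelial markers of the same library. The ratio of *Nos3* counts to the geometric mean of *Pecam1*, *Cdh5*, *Kdr*, *Tie1*, *Tek*, *Emcn*, *Egfl7* and *Esam* counts was 0.197, 0.208 and 0.239 in the vehicle mice and 0.168, 0.22 and 0.214 in the Tributyrin mice. On the log2 scale it differed by -0.11 between the groups, which is within their spread (exact permutation test, two-sided, p = 0.6). The 8 markers summed to 701 to 726 CPM with vehicle and 674 to 744 CPM with Tributyrin, and 0 of the 8 were at 0.

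Between *Nos3* and *Nos2* the RPKM ratio was 2.07, 2.28 and 2.92 in the vehicle mice and 2.03, 2.28 and 3.97 in the Tributyrin mice. Tributyrin mouse 3 had the highest ratio, with an exact 95% interval for counting error of 3.18 to 4.99, and the ranges of the groups overlapped. As shares of the RPKM of all synthases, *Nos3* took 66.8% to 79.7%, *Nos2* 20.1% to 32.98% and *Nos1* 0.075% to 0.629% of a library. Summed over the 6 libraries, *Nos3* stood 197-fold (exact 95% interval for counting error 140.3 to 285) and *Nos2* 80.6-fold (57.3 to 117) above *Nos1*. These intervals leave out the choice of length. The geometric mean of the ratio over the 6 mice was 250.2-fold for *Nos3* over *Nos1* per exonic length and 113-fold per coding length. For *Nos2* over *Nos1* it was 99.6-fold and 50.4-fold. A group difference in the ratio of *Nos3* to *Nos1*, -0.40 on the log2 scale, was within the spread between mice (exact permutation test, p = 0.9).

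**Figure D2:**
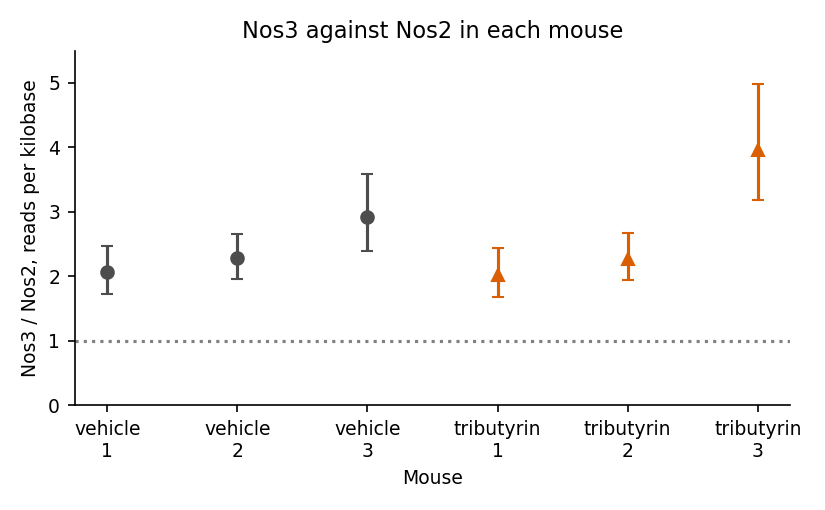
Ratio of *Nos3* to *Nos2* in reads per kilobase for each mouse, with WD + Vehicle as grey circles and WD + Tributyrin as orange triangles. Bars are exact 95% intervals for counting error and the dotted line marks equal levels. Each mouse lies above 1, from 2.03 to 3.97.

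Over all 9 genes the order of mean RPKM was *Ddah2* (8.59), *Gucy1b1* (3.98), *Nos3*, *Gucy1a1* (2.73), *Ddah1* (2.22), *Nos2*, *Prkg1* (0.917), *Pde5a* (0.561) and *Nos1*. Neighbours in this order kept it in 6 of 6 mice except at 3 steps. *Gucy1b1* was above *Nos3* in 2 of 6 mice only, so these genes do not differ beyond their spread, while *Gucy1a1* was above *Ddah1*, and *Ddah1* above *Nos2*, in 5 of 6. The middle of the order depends on the length used. With the longest coding sequence in place of all exons *Ddah1* was second (10.3) after *Ddah2* (16.01), *Gucy1a1* (9.17) stood above *Gucy1b1* (8.41) and *Prkg1* (4.84) stood above *Nos3* (4.31), but *Nos1* stayed last and the order of the synthases was kept. Among the 14133 genes tested, *Ddah2* lay above 75.4% in mean RPKM, *Nos3* above 56.6% and *Nos2* above 35.7%.

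Between WD + Tributyrin and WD + Vehicle, no member of the pathway passed the test. In the quasi-likelihood test of edgeR, with p-values adjusted by Benjamini-Hochberg over the 14133 genes left by its filter, 0 of the 8 genes tested were called at a false discovery rate (FDR) of 10%, as were 0% of all genes. DESeq2 and limma-voom called 0 of the 8 too. Over all genes DESeq2 (version 1.42.0) called 11. The study, which used DESeq2 version 1.14.1, reported transcripts altered at an FDR of 10%. These were not compared with the 11. At an unadjusted p under 0.05 there were 2 of the 8, *Prkg1* and *Ddah1*, both lower with Tributyrin, where 4.25% of all genes tested had such a p and 2.28% had one and were lower. The groups did not overlap in 0 of the 8 genes, against 8.91% of all genes. The estimate was below 0 for 8 of 8, where it was below 0 for 50.4% of all genes, and the median log2 fold change was -0.10 against -0.0013 over all genes. With either other scaling of the libraries 8 of 8 stayed below 0, although scaling by library size alone put 72.5% of all genes below 0 and their median at -0.07. Without vehicle mouse 1 there were 6 below 0, and without Tributyrin mouse 1 there were 7. Without vehicle mice 1 and 2, those of a high atrial marker sum, 8 of 8 were below 0. There *Nos2* was at -0.03, *Nos3* at -0.21, *Ddah2* at -0.23 and *Gucy1a1* at -0.02. Each was more than 1.5 times from its value with all mice. The 8 genes are measured in the same mice and cell types, and their estimates are not independent of each other.

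**Figure D3:**
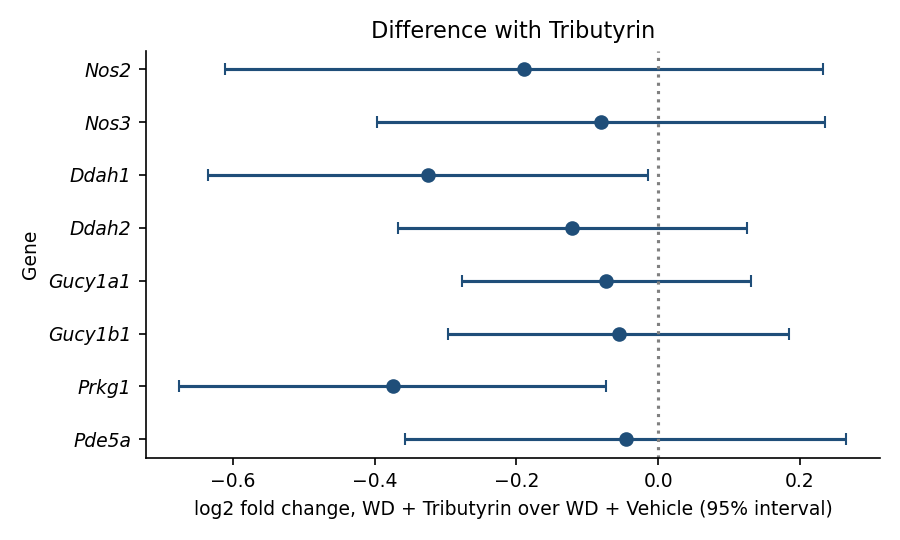
Log2 fold change of WD + Tributyrin over WD + Vehicle for the 8 genes tested, with 95% intervals from edgeR's quasi-likelihood model as bars and a dotted line at 0. Estimates run from -0.37 (*Prkg1*) to -0.05 (*Pde5a*), and 2 intervals, those of *Prkg1* and *Ddah1*, end below 0 before adjustment over all genes.

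*Prkg1* (ENSMUSG00000052920) had the largest difference of the 8. It spans 30564489 to 31765033 on the minus strand of chromosome 19, has 10861 exonic bases and encodes the kinase through which cGMP relaxes smooth muscle. Its normalized counts were 242, 335 and 309 in the vehicle mice and 243, 212 and 229 in the Tributyrin mice. The Tributyrin mice lay close together, and vehicle mice 2 and 3 were above them, but vehicle mouse 1 was within their range. The means were 295.5 ± 47.9 (SD, n = 3) and 228 ± 15.6 (SD, n = 3), and the two-sided exact permutation test gave p = 0.2. The log2 fold change was -0.37 (standard error 0.136, 95% interval -0.68 to -0.07), with an unadjusted p of 0.0194 and an adjusted p of 0.999 from edgeR. Without vehicle mouse 2 it was -0.27 (unadjusted p 0.0965 from edgeR) and without vehicle mouse 1 it was -0.49 (0.00325). Without both vehicle mice of a high atrial marker sum it was -0.44. This setting leaves 1 vehicle mouse and assumes that it varies like the others. The gene *Cstf2t* lies within *Prkg1* on the opposite strand and shares 0 exonic bases with it.

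Markers of smooth muscle, a cell type in which *Prkg1* is abundant, had estimates on the other side of 0. All 5 of the 5 smooth muscle markers were above 0, from 0.04 to 0.71 on the log2 scale with a median of 0.11. At an FDR of 10% 0 passed. An unadjusted p under 0.05 in edgeR was found for *Myh11* and *Cnn1*, where 4.25% of all genes tested had one. *Myh11*, the smooth muscle myosin heavy chain, was at 0.59 (standard error 0.168). Its groups did not overlap, as in 8.91% of all genes tested, with 934 to 1025 normalized counts with vehicle and 1071 to 1915 with Tributyrin. The summed level of the 5 markers was 249.6 to 301 CPM with vehicle and 233 to 350 CPM with Tributyrin. Their part in the *Prkg1* values was not tested. Of 5 pericyte markers 3 were above 0 and 2 below, with a median of 0.0068.

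*Ddah1* (ENSMUSG00000028194), on the plus strand of chromosome 3 from 145758675 to 145894277 with 3983 exonic bases, was second. The vehicle mice had normalized counts of 227, 287 and 259.7 and the Tributyrin mice 211, 174.5 and 234. Tributyrin mouse 3 was above vehicle mouse 1, so the groups overlapped, and Tributyrin mouse 2 was the lowest. Vehicle mice averaged 258 ± 30.2 (SD, n = 3) and Tributyrin mice 207 ± 30.03 (SD, n = 3) (exact permutation test, two-sided, p = 0.2). In edgeR the log2 fold change was -0.32 (standard error 0.14, 95% interval -0.64 to -0.01), with an unadjusted p of 0.0419 and an adjusted p of 0.999. DESeq2 gave an unadjusted p of 0.0597. Without Tributyrin mouse 2 the estimate was -0.22, a change of 1.5 times (unadjusted p 0.153 from edgeR), and without vehicle mouse 2 it was -0.24 (0.165).

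*Ddah2* (ENSMUSG00000007039), on the plus strand of chromosome 17 from 35059035 to 35062095, has 1593 exonic bases and the highest level per length of the 9 genes. Its normalized counts were 349, 372 and 404 in the vehicle mice and 338, 312 and 385 in the Tributyrin mice, and the groups overlapped at a log2 fold change of -0.12 (standard error 0.111). The RPKM of *Ddah1* was 0.259, 0.308 and 0.257 of that of *Ddah2* in the vehicle mice and 0.25, 0.224 and 0.243 of it in the Tributyrin mice. Every Tributyrin mouse lay below every vehicle mouse in this ratio, by 0.20 on the log2 scale in the mean. The two-sided exact permutation test gave p = 0.1, the smallest that 3 mice against 3 allow, and 0.5 after Benjamini-Hochberg adjustment over the 5 ratios compared between the groups, which was 1 for the other 4. Without vehicle mouse 2 the difference was -0.11. The closest mice, vehicle mouse 3 and Tributyrin mouse 1, were apart by less than the counting error of *Ddah1*, which is up to 7.24% of a library's value.

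For the hydrolases the 250 bases before the RefSeq start (GRCm38.p6) are shown because these genes encode the same activity and *Ddah2* had the higher level with each length used, by an amount that depends on the length. Capitals mark GC boxes (GGGCGG or its complement CCGCCC), which 32.7% of the 32851 promoter windows of this length in the RefSeq table hold. CCAAT boxes (CCAAT or ATTGG, in 33.9% of windows) and TATA boxes (TATAAA or TTTATA, in 12.4%) were also searched on both strands. The *Ddah1* window is chr3:145758442-145758691 on the plus strand and holds none of these motifs. The *Ddah2* window is chr17:35058785-35059034 on the plus strand and holds 2 GC boxes, which begin 72 and 9 bases before the start.
Ddah1: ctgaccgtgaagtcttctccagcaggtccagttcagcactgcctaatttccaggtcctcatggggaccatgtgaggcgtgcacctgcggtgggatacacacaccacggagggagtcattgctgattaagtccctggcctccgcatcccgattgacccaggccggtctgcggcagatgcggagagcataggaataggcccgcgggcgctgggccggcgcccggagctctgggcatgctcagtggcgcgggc
Ddah2: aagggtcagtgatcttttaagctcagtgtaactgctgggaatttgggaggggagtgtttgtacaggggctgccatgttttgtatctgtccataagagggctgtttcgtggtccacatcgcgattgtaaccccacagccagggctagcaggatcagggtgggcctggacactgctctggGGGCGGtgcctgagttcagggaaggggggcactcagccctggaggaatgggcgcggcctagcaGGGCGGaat

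The subunits of soluble guanylyl cyclase showed no detectable difference with Tributyrin, in level or in their ratio. *Gucy1a1* (ENSMUSG00000033910, the alpha subunit) and *Gucy1b1* (ENSMUSG00000028005, the beta subunit) are neighbours on chromosome 3, minus strand, at 82092427 to 82145789 and 82032006 to 82074689, with 17737 bases between them. The normalized counts of *Gucy1a1* were 555, 489 and 493 in the vehicle mice and 490.0, 503.5 and 466 in the Tributyrin mice. Those of *Gucy1b1* were 458, 384 and 416 in the vehicle mice and 444, 384 and 379.7 in the Tributyrin mice. For both, vehicle mouse 1 was the highest and Tributyrin mouse 3 the lowest, and the groups overlapped. In RPKM, *Gucy1a1* was 0.682, 0.718 and 0.668 of *Gucy1b1* in the vehicle mice and 0.622, 0.739 and 0.691 of it in the Tributyrin mice. On the log2 scale the SD of this ratio was 0.0541 with vehicle and 0.126 with Tributyrin. For *Ddah1* to *Ddah2* it was 0.147 and 0.0829, so with Tributyrin the cyclase ratio was the wider. The ratios of the cyclase subunits are per exonic length, and with coding length *Gucy1a1* was the higher of the pair. This ratio differed by -0.01 on the log2 scale between the groups (two-sided exact permutation test, p = 1).

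Among the 8 genes tested the cyclase subunits had the smallest standard errors. The estimate was -0.07 for *Gucy1a1* (standard error 0.0919, 95% interval -0.28 to 0.13) and -0.06 for *Gucy1b1* (standard error 0.108, 95% interval -0.30 to 0.18). In fold terms the intervals run from 0.825 to 1.09 and from 0.814 to 1.14. A larger change of these transcripts than that lies outside the interval of this model, while a smaller one lies inside it.

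The windows before the RefSeq starts of the subunits are shown because these neighbouring genes encode subunits of the same enzyme. Capitals are as above, with CCAAT boxes also in capitals. The *Gucy1a1* window, the first of 2 starts in the table, is chr3:82145651-82145900 on the minus strand and holds 1 GC box, which begins 238 bases before the start. The *Gucy1b1* window is chr3:82074712-82074961 on the minus strand and holds 1 GC box, 140 bases before the start, and 2 CCAAT boxes, 78 and 24 bases before it.
Gucy1a1: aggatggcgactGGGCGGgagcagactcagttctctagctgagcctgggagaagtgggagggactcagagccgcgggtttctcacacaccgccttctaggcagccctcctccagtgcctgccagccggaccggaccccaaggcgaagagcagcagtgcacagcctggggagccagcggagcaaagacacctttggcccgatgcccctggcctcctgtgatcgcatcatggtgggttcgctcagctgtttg
Gucy1b1: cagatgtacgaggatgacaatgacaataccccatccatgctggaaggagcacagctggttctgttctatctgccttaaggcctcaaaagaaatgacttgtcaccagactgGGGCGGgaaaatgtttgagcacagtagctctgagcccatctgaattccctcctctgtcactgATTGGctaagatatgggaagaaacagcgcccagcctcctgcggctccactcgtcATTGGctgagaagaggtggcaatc

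*Pde5a* (ENSMUSG00000053965), the target of sildenafil, is on the plus strand of chromosome 3 from 122728947 to 122859374, with 9831 exonic bases. Its normalized counts were 166, 129.5 and 147 in the vehicle mice and 136, 142 and 150.3 in the Tributyrin mice. All Tributyrin mice lay within the range of the vehicle mice. On the log2 scale the difference was -0.05 (standard error 0.14), and it was 0.06 without vehicle mouse 1. The RPKM of *Pde5a* was 0.427 to 0.759 of that of *Prkg1* with vehicle and 0.616 to 0.738 of it with Tributyrin (difference 0.32 on the log2 scale, two-sided exact permutation test, p = 0.4). This difference was 0.55 without vehicle mouse 1 and 0.13 without vehicle mouse 2.

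Beyond the 9 genes, 52 genes of the pathway were listed by role, of which 45 passed the filter. In edgeR's test 22 of the 45 were above 0 and 23 below, 0 were called at an FDR of 10%, and 3 had an unadjusted p under 0.05, *Pln*, *Slc7a1* and *Rgs2*, where 4.25% of all genes did. The median log2 fold change was -0.0059. Groups that did not overlap were found in 4 of the 45, near the 8.91% of all genes. They were *Pln*, *Asl*, *Akt1* and *Adh5*, the last 3 named after their values were seen.

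**Figure D4:**
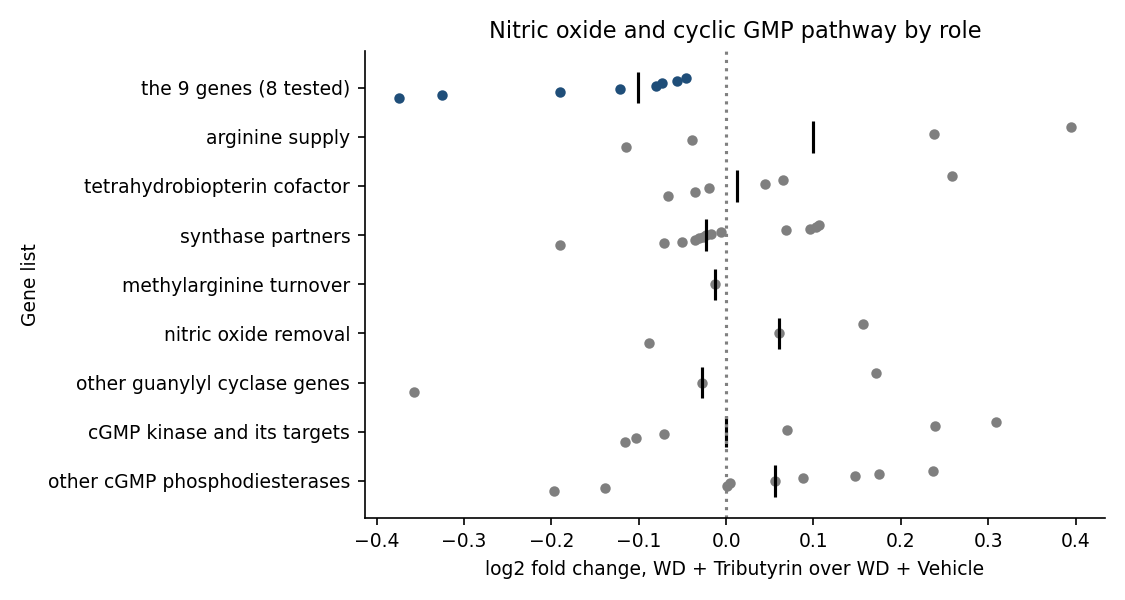
Log2 fold change of WD + Tributyrin over WD + Vehicle for the genes described here and for 8 lists of other pathway genes, with 1 point for each gene tested, a black bar at each list's median and a dotted line at 0. The 8 genes of the top line lie below 0, while the other lists spread over both sides, from -0.36 to 0.39.

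Of the genes that supply arginine, 2 of 4 tested were above 0. *Slc7a1*, the main carrier that brings arginine into cells, had normalized counts of 1186, 1153 and 1210.0 in the vehicle mice and 1597, 1912 and 1144 in the Tributyrin mice. Tributyrin mice 1 and 2 stood well above the others and Tributyrin mouse 3 below all vehicle mice. Its log2 fold change was 0.39 (standard error 0.15), with an adjusted p of 0.999 from edgeR. It was 0.0059 when genes of low counts were kept in, so the call depends on the filter. *Arg1* and *Arg2*, the arginases that compete for arginine, had 8 and 9 counts over 6 libraries.

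Of the 6 genes that make or recycle tetrahydrobiopterin, the cofactor of the synthases, 3 were above 0 and 3 below. The lowest unadjusted p was that of *Gchfr*, the feedback regulator, at 0.26 (standard error 0.219), and *Qdpr*, which recycles the cofactor, had the highest level with 19.5 RPKM. Among 13 partners of the synthases 4 were above 0 and 9 below. *Hsp90ab1*, a chaperone that binds *Nos3* protein, was the highest of them (377 RPKM, log2 fold change -0.0059), and *Cav3*, the muscle caveolin, was at 0.11 (standard error 0.0875). *Prmt1*, which makes methylarginines, was at -0.01 (standard error 0.0859), while *Agxt2*, another enzyme that breaks them down, had 0 counts.

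Of the genes that remove nitric oxide, *Mb*, which encodes myoglobin, was by far the highest with 3820 RPKM and a log2 fold change of 0.16 (standard error 0.0783). The receptor cyclases of natriuretic peptides were both expressed, *Npr1* at 0.17 (standard error 0.105) and *Npr2* at -0.03 (standard error 0.0709), where *Npr2* had the higher level (12.2 RPKM). *Gucy1a2*, another alpha subunit gene of soluble guanylyl cyclase, was at -0.36 (standard error 0.262), with 34 to 72 counts a library and groups that overlapped. This was the lowest estimate of the 45 other pathway genes tested. *Gucy1b2*, another beta subunit gene, had 7 counts over 6 libraries.

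*Pln* and *Rgs2* are among the targets of the kinase of *Prkg1*. *Pln* encodes phospholamban, the inhibitor of the calcium pump of the sarcoplasmic reticulum. Its normalized counts were 36330, 34770 and 33890 in the vehicle mice and 43350, 37120 and 43370 in the Tributyrin mice. The groups did not overlap, as in 8.91% of all genes tested. Its estimate was 0.24 (standard error 0.079, adjusted p 0.999 from edgeR). Of the 6 cardiomyocyte markers 4 were above 0 and 2 below. Those with an unadjusted p under 0.05 in edgeR were *Tnnt2* (0.23), *Tnni3* (0.21) and *Actc1* (-0.21), where 4.25% of all genes tested had one. Their part in the *Pln* values was not tested. *Rgs2*, which shortens signals of G proteins, was at 0.31 (standard error 0.136), and its groups overlapped. The second cGMP kinase gene, *Prkg2*, had 48 counts over 6 libraries and was left out by the filter. Normalized counts of *Prkg2* were 5.20, 5.43 and 2.48 in the vehicle mice and 8.42, 14.6 and 10.3 in the Tributyrin mice. Every Tributyrin mouse was above every vehicle mouse (exact permutation test, two-sided, p = 0.1, the smallest possible), at 2 to 16 counts a library. The gene was singled out after its values were seen. Groups did not overlap in 8.91% of all genes tested, a share that leaves out genes below the filter, such as *Prkg2*. *Gucy1b2*, also below the filter, had groups that did not overlap in the other direction. It had 2, 2 and 2 counts in the vehicle mice and 0, 0 and 1 in the Tributyrin mice.

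Phosphodiesterases that act on cGMP were led by *Pde3a* (11.0 RPKM, log2 fold change 0.09, standard error 0.0777), which stood above *Pde5a* in level. Of 9 genes in this list 7 were above 0 and 2 below. The lowest unadjusted p was that of *Pde1c*, at 0.18 (standard error 0.0878).

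The genes whose pattern over the 6 libraries was most like that of a synthase were found by Pearson's r of log2 CPM, as a description. For *Nos3* they were *B3gnt3* (r = 0.996), *Robo4* (0.993), an endothelial receptor, and *Ugt1a7c* (0.993), which has only 1 to 15 counts and shares exons with its gene family. For *Nos2* they were *Thbs3* (0.994), *Csf3r* (0.994) and *Tmed8* (0.992), and for *Nos1*, from its few counts, *Gm42432* (0.973), *Piwil2* (0.973) and *Lrrc41* (0.969). With only 6 points such an r does not single out a gene. Among the 14133 genes tested 219 had an r above 0.9 with *Nos3*, 232 with *Nos2* and 58 with *Nos1*.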

How the data were processed

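Stranded mRNA libraries of heart ventricle were sequenced as single-end reads of 50 bases. Per the labels and the methods of the study, the authors trimmed adapters (cutadapt 1.13), removed poor reads and rRNA, aligned with STAR to mm10 and counted with HTSeq 0.6.1p1, and they deposited raw counts per gene. Which annotation release and strand setting they used is not given in the sources used here. Genes were named from GENCODE M21 (GRCm38, the same assembly as mm10), with 54165 of 54232 identifiers matched and 109 of 109 listed symbols found. RPKM and exonic lengths were computed here.

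The 3 mice of each group were compared with edgeR 4.0.16 in R 4.3.3 (quasi-likelihood, TMM, filterByExpr at its settings of 10 counts and 15 in total, Benjamini-Hochberg over all genes). DESeq2 1.42.0, limma 3.58.1, other scalings and filters, the replicate number as a block and each mouse left out were alternatives. Dropping vehicle mice 1 and 2 was added after the data were seen. Ratios used a pseudocount of 0.1 counts and exact permutation tests. Intervals of counts cover counting error only. The numbering of mice was not taken to pair them. The p-values of group differences set the difference against the spread between these mice. Those of the synthase ratios come from flips of the sign of each mouse's log2 ratio.

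The 9 genes and the lists were chosen with earlier results of these data known. Genes named are the 9, genes overlapping them, in each list the gene of lowest p and of highest level and any with an unadjusted p under 0.05, and 3 genes of like pattern for each synthase. *Myh11*, *Cnn1*, *Nppa*, *Arg1*, *Arg2*, *Agxt2*, *Gucy1a2* and *Gucy1b2* were named after their values were seen. So were *Mrc1*, *Adgre1*, *Csf1r*, *Itgam*, *Tnnt2*, *Tnni3* and *Actc1*. The edgeR step was tested on simulated counts. Promoters of 7 of the 9 genes were found in the RefSeq table, and figures and ratios were made with Python 3.11.15. The lists of Schwann, fibroblast and erythroid markers had medians of 0.12, -0.0074 and 0.11 on the log2 scale, with 0 genes called.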

Additional observations from a re-analysis of the deposited data

How the results depend on the processing

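The number of the 8 genes called at an FDR of 10% was 0 in each of the 14 alternatives. Over all genes 0 were called in the reported comparison, 167 without the filter on low counts, 11 by DESeq2, 2 with the replicate number as a block, and 0 to 3 with each mouse left out, and the cause was not tested. At an unadjusted p under 0.05 edgeR gave 600 genes, but 1178 without the filter, 367 of the 9700 genes of a mean CPM of at least 5, 389 to 1360 with each mouse left out (lowest without vehicle mouse 3, highest without Tributyrin mouse 2) and 396 without vehicle mice 1 and 2. Of the other pathway genes 1, *Slc7a1*, was called without the filter. With the replicate block 0 of the 8 genes were called and *Prkg1* was at -0.37. The deviations of mice that share a number correlated by 0.214, 0.037 and 0.015. Mice of different numbers were not compared in this way, so these values do not decide whether the numbers pair the mice. With each mouse left out the log2 fold change ran from -0.18 to 0.0763 for *Nos3*, from -0.13 to 0.0183 for *Gucy1b1* and from -0.14 to 0.0561 for *Pde5a*, and it stayed below 0 for the other 5 genes, closest to it for *Nos2* without Tributyrin mouse 3 (-0.0029).

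The log2 ratios of the synthases kept their direction. With each mouse left out they ran from 1.20 to 1.39 (*Nos3*/*Nos2*), 7.60 to 8.21 (*Nos3*/*Nos1*) and 6.31 to 6.85 (*Nos2*/*Nos1*), and without vehicle mice 1 and 2 they were 1.43, 8.28 and 6.85. These settings fail the threshold by construction, since 5 mice allow no p under 0.0625 and 4 none under 0.125. With coding length the ratios were, in the same order, 1.16, 6.82 and 5.66 (p = 0.0312 each, exact permutation test), so their size depends on the length used. Differences between the groups in a ratio changed sign with single mice left out, from -1.10 to 0.43 for *Nos3*/*Nos1*, -0.0723 to 0.0527 for *Gucy1a1*/*Gucy1b1* and -0.18 to 0.0183 for *Nos3* over endothelial markers, and without vehicle mice 1 and 2 that of the cyclase subunits was 0.031, that of *Nos3*/*Nos1* -2.05 and that of *Nos3* over endothelial markers -0.27. Depth limits *Nos1* most, and 3 mice a group limit all differences.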
